A study of Mus musculus and Acomys cahirinus with 16 samples.

Results

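The genes described here are 34 genes that cells switch on in answer to type I interferon, taken by symbol from a list. The list was chosen with earlier results of these data known, so its counts describe these samples and are not an independent test. All 34 were found in the mouse count table of 56980 genes, and 30 were found by symbol in the spiny mouse table of 19818 genes. Oas1a, Mx1, Mx2 and Sp100 were not analysed here in spiny mouse. They were followed in skin of 2 rodents, the laboratory mouse Mus musculus and the spiny mouse Acomys cahirinus, either untreated or treated with DMBA/TPA. DMBA (dimethylbenzanthracene) is a carcinogen that forms DNA adducts, and TPA is a phorbol ester that drives inflammation and growth of the epidermis. Polyadenylated RNA was sequenced from 16 samples, 4 in each of the groups untreated mouse, treated mouse, untreated spiny mouse and treated spiny mouse. Strain, age, sex, dose, duration and the time of sampling are not given in the labels. Whether the untreated animals received a solvent is also not given. The design text of the series speaks of irradiated fibroblasts and so differs from the sample labels and the title, which were followed here. The labels do not say that replicates came from separate animals, so the p-values below measure only the spread between these samples.

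Type I interferons (interferon alpha, beta and, in keratinocytes, kappa) bind the receptor IFNAR1 and IFNAR2, whose kinases JAK1 and TYK2 phosphorylate STAT proteins. STAT2 and IRF9 are subunits of the complex ISGF3, which binds interferon-stimulated response elements in promoters, while interferon gamma acts at gamma-activated sites. The induced genes encode sensors of foreign RNA, enzymes and GTPases that block viral replication, the ubiquitin-like protein ISG15 with its enzymes, and the transcription factors that keep the loop running. In skin, keratinocytes, fibroblasts and resident or infiltrating leukocytes can all express them.

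The promoter sequences of mouse members were examined first, for the response element that ISGF3 binds. Whether the list used this element in choosing the genes is not stated. The 300 bases upstream of each canonical transcript start (GRCm39 genome, GENCODE M39) were searched on both strands for the core of the interferon-stimulated response element, taken as GAAA, any 2 bases and GAAA again. That core lay upstream of 11 of the 34 members (32.4%), against 887 of 21770 protein-coding genes (4.07%). The gamma-activated site, TTCNNNGAA, which reads the same on both strands, lay upstream of 5 members (14.7%) and of 9.2% of all protein-coding genes. A match describes letters and is not a measured binding site, and the absence of a match says only that these letters are not in this window. The windows below belong to the regulators Isg15, Usp18, Stat2 and Irf1, to Oas3, Oasl1 and Rsad2, which had the largest species differences among all members that carry a match, and to the near-identical copies Ifit3 and Ifit3b. Each is printed 5′ to 3′ on the strand of its gene, with the motif in capitals. Where the core lies on the other strand it appears as TTTC, 2 bases and TTTC.
Isg15 (chr4:156285324-156285361, minus strand): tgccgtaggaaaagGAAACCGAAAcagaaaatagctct
Usp18 (chr6:121222792-121222829, plus strand): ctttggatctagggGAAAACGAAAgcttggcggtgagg
Stat2 (chr10:128106131-128106168, plus strand): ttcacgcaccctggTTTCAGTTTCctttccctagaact
Oas3 (chr5:120915776-120915813, minus strand): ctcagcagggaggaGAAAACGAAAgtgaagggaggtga
Oasl1 (chr5:115061012-115061049, plus strand): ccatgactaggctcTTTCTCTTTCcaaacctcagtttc
Rsad2 (chr12:26506548-26506585, minus strand): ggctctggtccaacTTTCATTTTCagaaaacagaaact
Ifit3 (chr19:34560793-34560830, plus strand): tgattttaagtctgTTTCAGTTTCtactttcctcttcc
Ifit3b (chr19:34585189-34585226, plus strand): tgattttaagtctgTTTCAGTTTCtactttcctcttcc
Irf1 (chr11:53660737-53660773, plus strand): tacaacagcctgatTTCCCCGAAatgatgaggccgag
The first 8 sequences carry the response element core and the Irf1 sequence carries the gamma-activated site. Isg15 held 3 overlapping matches of the core, of which the middle one is in capitals, and the gamma-activated site of Bst2 overlapped its response element core. The Ifit3 and Ifit3b windows are the same letter for letter. In mouse, the 11 members with the core had a median log2 fold change of -1.46 and 9 of them were called, and the 23 without it had a median of -1.04 with 18 called. In spiny mouse the medians were 1.02 over 9 tested members whose mouse promoter held the core and 0.91 over 19 others. Spiny mouse promoters were not analysed here.

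Before the results, the libraries themselves need a short account. A mouse library held 19608787 to 30198281 counts, and a spiny mouse library 21143918 to 30561256. Levels are CPM, which are counts put on a common total with TMM factors within each species, and 3 counts correspond to between 0.102 and 0.158 CPM. All 4 keratinocyte markers listed (Krt5, Krt14, Krt1 and Krt10) were found, and their summed level was at least 5829 CPM in every library. Untreated mouse replicate 2 stood apart from the other untreated mouse libraries, with 1588 CPM summed over 5 genes of the growing hair follicle where the other 3 had 1.37 to 23.7 CPM. Its column name, alone among the untreated ones, carries a suffix after the replicate number whose meaning is not given in the sources used here. All 8 mouse libraries held Y-linked counts (Ddx3y 1548 to 3080), while Ddx3y was listed at 0 in every spiny mouse library. What the spiny mouse values say of sex was not tested, and the effects of species and sex cannot be told apart if the sexes differ.

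DMBA/TPA treatment was followed by opposite movements of these genes in the species. A gene was called where the quasi-likelihood test of edgeR gave an adjusted p under 0.05 over all genes tested. In mouse skin all 34 members passed the filter on low counts, 27 fell, none rose and 7 were not called, with a median log2 fold change of -1.27. Over all 19740 mouse genes tested, 35.3% were called lower and 25.9% higher, and the median was -0.15. In spiny mouse skin 28 members passed the filter, 23 rose, none fell and 5 were not called, with a median of 1.003. Over all 14833 spiny mouse genes tested, 28.2% were called higher and 26.9% lower, and the median was -0.01.

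The difference between the species was itself tested, by the interaction term of species and treatment, over 13656 shared symbols. Of 28 members tested, 27 had a log2 fold change called larger in spiny mouse, none had one called smaller, and the exception was Trim25. Among all shared symbols 21.4% were called larger and 24.7% smaller in spiny mouse. The median difference of the members was 2.09 on the log2 scale, against -0.03 for all shared symbols. In all, 17 of the 28 members fell in mouse and rose in spiny mouse: Dtx3l, Eif2ak2, Herc6, Ifi35, Ifi44, Ifih1, Ifit1, Irf1, Oas3, Oasl1, Parp14, Parp9, Rsad2, Samd9l, Stat2, Trim21 and Xaf1. Only 3.53% of all shared symbols were called in that pair of directions.

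**Figure D1:**
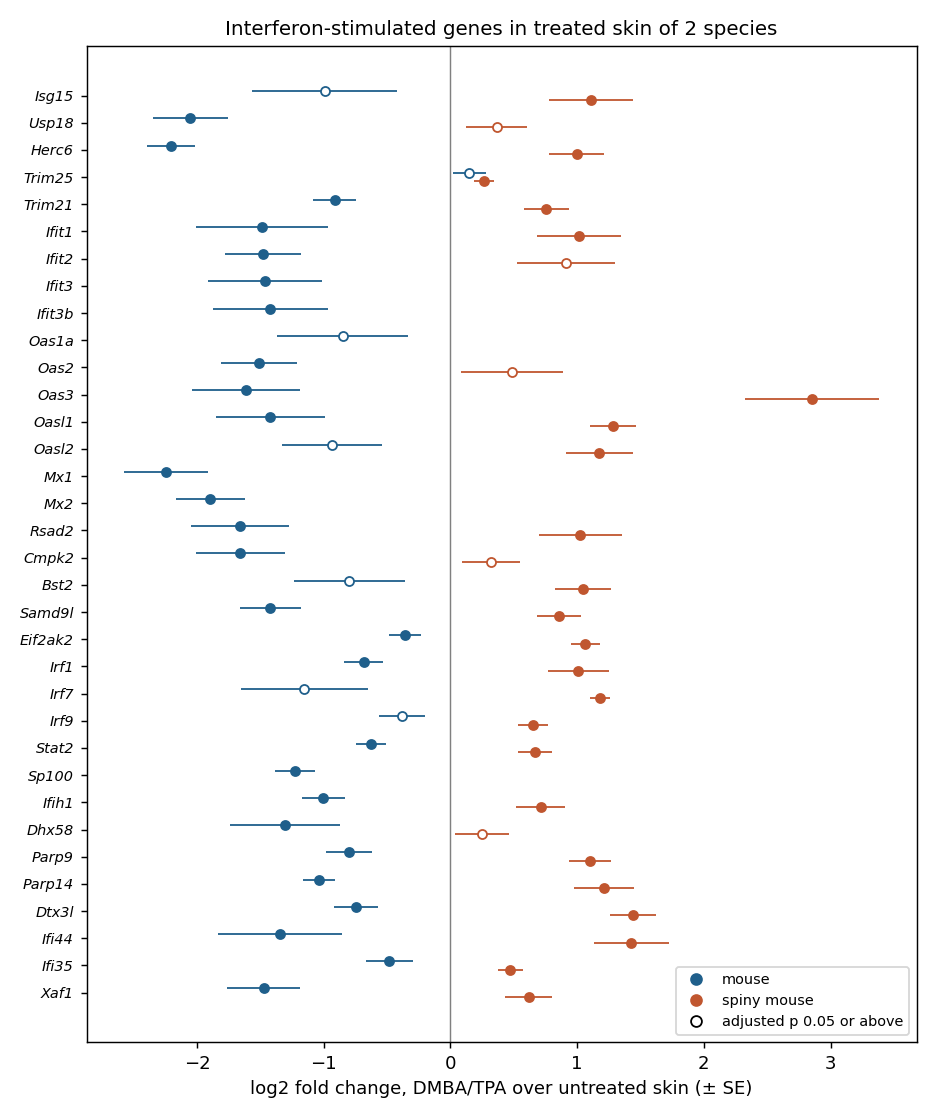
Log2 fold change of each tested member, DMBA/TPA over untreated skin, in mouse (blue) and spiny mouse (orange), with standard errors from the edgeR fit. Filled points have an adjusted p under 0.05. Mouse values lie left of 0 except Trim25 (0.15), and spiny mouse values lie right of 0, from 0.25 for Dhx58 to 2.85 for Oas3.

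Groups that did not overlap were also counted. Every treated mouse sample was lower than every untreated one for 16 of 34 members, where 32.0% of all genes tested showed that. For 18 of 28 members every treated spiny mouse sample was higher than every untreated one, where 26.7% of all genes did. In mouse, untreated replicate 2 and treated replicate 4 stood at the facing edges of their groups. Untreated mouse replicate 2 was the lowest untreated sample for 33 of 34 members. Relative to the untreated mean, the median member in that library was at -0.68 on the log2(CPM + 0.1) scale, while the other 3 untreated libraries were at 0.09 to 0.29. The treated mouse libraries were at -1.56, -1.35, -0.94 and -0.67 in replicates 1 to 4. Replicate 4 held the highest treated value for 31 of 34 members. Leaving out 1 library at a time moved the mouse count of 27 calls in both directions. It was 33 without untreated replicate 2, 19 without treated replicate 1 or 2 and 20 without untreated replicate 3. In the other 4 fits it lay between 22 and 26. Untreated replicate 2 was singled out by these same values, so the 33 calls are no added support.

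Spiny mouse libraries were ordered in the same way. Treated replicates 1 to 4 stood at 0.29, 0.96, 1.34 and 0.64 above the untreated mean on that scale. Replicate 3 was the highest treated sample for 25 of 28 members and replicate 1 the lowest for 23. Untreated spiny mouse libraries kept within -0.11 and 0.15. Without treated replicate 3, 22 members were called higher and the median was 0.66, and Ifit1 was the member that lost its call.

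**Figure D2:**
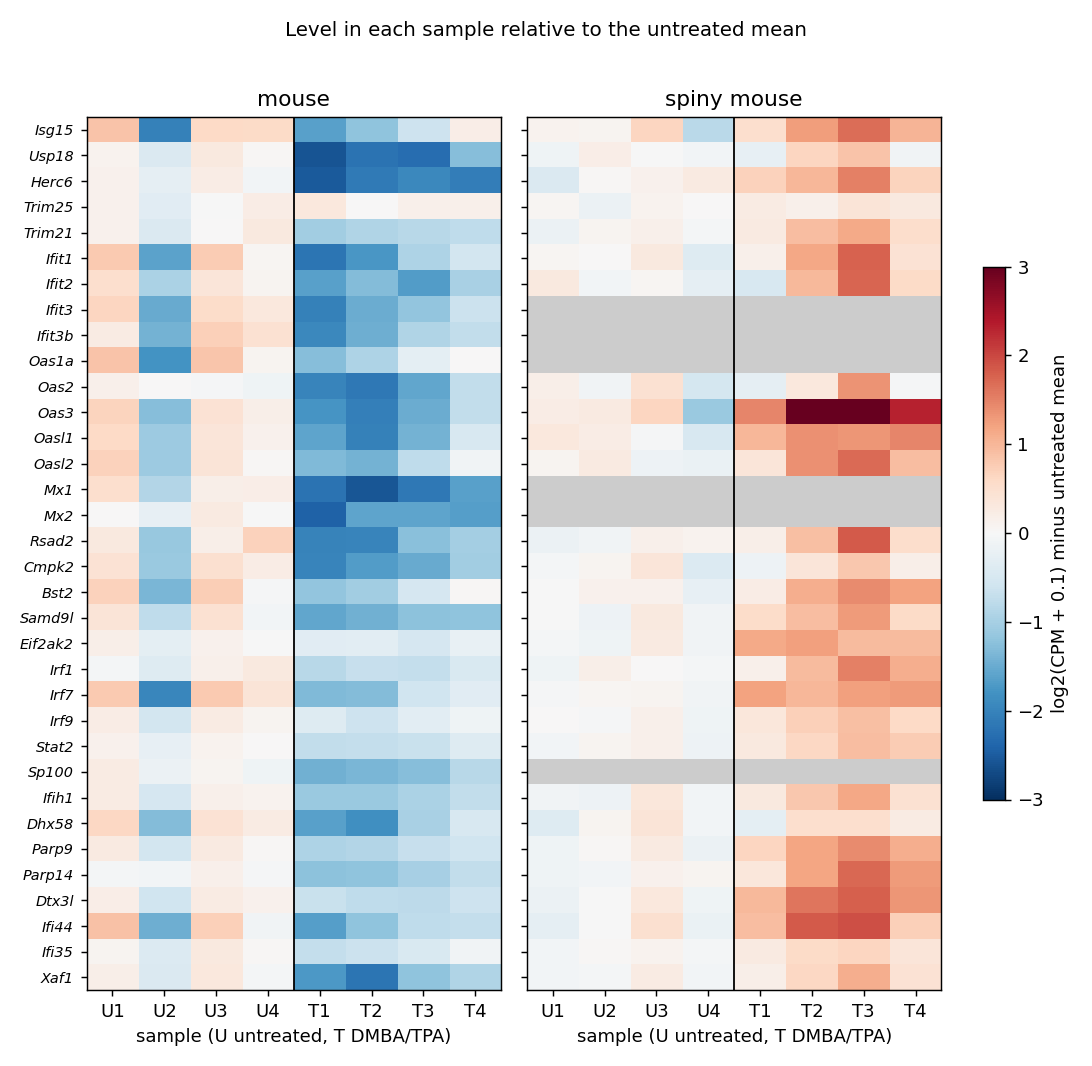
Each column is 1 library and each row 1 member, coloured by log2(CPM + 0.1) minus the mean of the 4 untreated libraries of that species, and grey rows are members not tested in spiny mouse. Untreated mouse replicate 2 (U2) is the lowest untreated mouse column in 33 of 34 rows, with a median of -0.68. Treated spiny mouse replicate 3 (T3) is the reddest column, with a median of 1.34.

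The transcription factors came first by role. Irf7, which amplifies interferon production, lies at chr7:140842619-140846394 in mouse. Its level was 57.5, 8.46, 57.1 and 43.6 CPM in untreated mouse replicates 1 to 4 and 13.1, 13.4, 22.1 and 26.1 CPM after treatment. The groups overlapped only through untreated replicate 2, and the log2 fold change of -1.15 (SE 0.502) was not called (edgeR adjusted p = 0.0710, 95% interval -2.38 to 0.07). Without that library the value was -1.40 (edgeR adjusted p = 0.000142). The library was singled out by these same values, so that fit is no added support. In spiny mouse Irf7 stood at 33.7, 36.5, 36.6 and 32.3 CPM in untreated skin and at 79.7, 69.1, 82.0 and 84.7 CPM in treated skin. The spiny mouse groups were far apart, with a 2.27-fold rise (log2 1.18, SE 0.0806, edgeR adjusted p = 1.30e-05). Exons of mouse Irf7 overlap Phrf1 on the other strand, and read pairs on the shared stretch were not counted for either gene.

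Stat2, the STAT subunit of ISGF3 that IRF9 binds, was lower in every treated mouse sample than in every untreated one. It measured 46.5, 36.1, 45.5 and 43.0 CPM in untreated mouse skin and 25.6, 26.1, 27.0 and 32.4 CPM in treated mouse skin. That was a 1.54-fold fall (log2 -0.62, SE 0.118, edgeR adjusted p = 0.00169). The spiny mouse values moved the other way, again without overlap. Untreated spiny mouse samples had 30.9, 34.4, 36.3 and 29.2 CPM and treated samples 40.1, 50.2, 61.9 and 55.2 CPM. The rise was 1.59-fold (log2 0.67, edgeR adjusted p = 0.00239), and Stat2 of spiny mouse shares exon sequence with Apof on the same strand. The difference between the species was 1.29 (SE 0.181, edgeR adjusted p = 4.64e-05).

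Irf9, the DNA-binding subunit of ISGF3, had 45.3, 26.5, 46.2 and 41.5 CPM in untreated mouse and 30.0, 25.4, 31.2 and 35.9 CPM in treated mouse. Untreated replicate 2 lay among the treated values and the change was not called (log2 -0.38, edgeR adjusted p = 0.0944). Leaving out that library, again chosen by these same values, gave -0.44 (edgeR adjusted p = 0.00332), which is no added support. Part of mouse Irf9 overlaps Rnf31 on the same strand. In spiny mouse Irf9 went from 31.0, 30.1, 34.1 and 28.4 CPM to 39.1, 50.5, 57.9 and 46.9 CPM, with no overlap (log2 0.65, edgeR adjusted p = 0.00147).

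Irf1, a factor that responds strongly to interferon gamma and carries the gamma-activated site printed above, was lower in every treated mouse sample. Mouse values were 25.1, 19.8, 28.9 and 31.8 CPM untreated and 14.6, 16.04, 15.9 and 19.01 CPM treated, a 1.61-fold fall (log2 -0.69, edgeR adjusted p = 0.00454). Spiny mouse values were 27.5, 34.3, 30.7 and 29.1 CPM untreated and 33.5, 58.8, 87.1 and 64.8 CPM treated. Treated replicate 1 lay inside the untreated range and the other 3 lay above it, and Irf1 rose 2.01-fold (edgeR adjusted p = 0.00610). Sp100, a nuclear body protein listed with the factors, fell 2.34-fold in mouse (edgeR adjusted p = 0.000224).

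**Figure D3:**
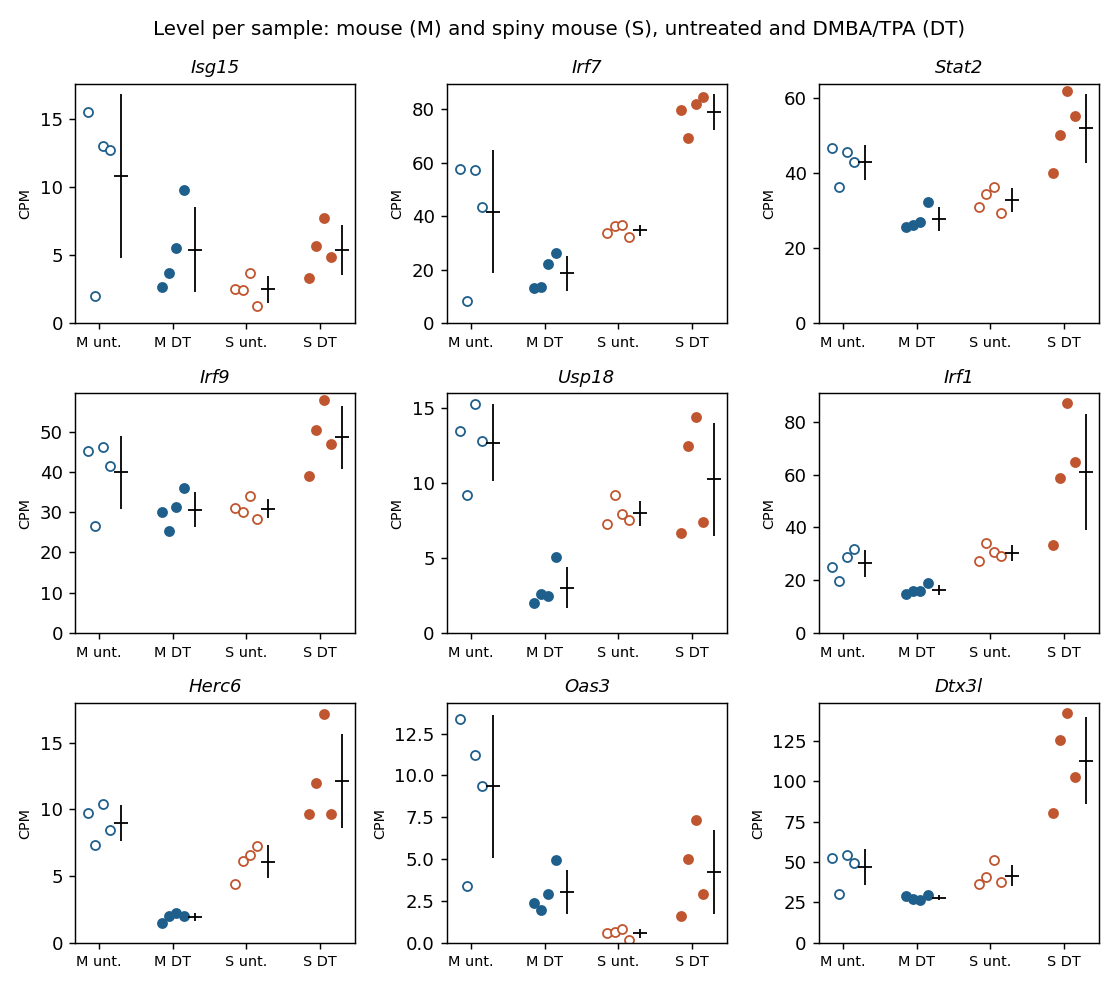
CPM of 9 members in each library, open circles untreated and filled circles DMBA/TPA-treated (DT), mouse (M) in blue and spiny mouse (S) in orange, with the mean and SD of 4 samples as a bar beside the points. Irf7 in treated spiny mouse (69.1 to 84.7 CPM) stands clear of its untreated values (32.3 to 36.6 CPM), and in mouse 1 untreated point of Isg15, Irf7 and Oas3 lies near the treated points.

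The ISG15 system was less uniform. Isg15, the ubiquitin-like modifier itself, had 15.5, 2.02, 13.005 and 12.7 CPM in untreated mouse and 2.68, 3.65, 5.53 and 9.76 CPM in treated mouse. Its lowest value of all was that of untreated replicate 2, and the change was not called (log2 -0.99, SE 0.573, edgeR adjusted p = 0.158, 95% interval -2.39 to 0.41). Without that library it was -1.24 (edgeR adjusted p = 0.00542), again no added support, as the library was chosen by these same values. Spiny mouse Isg15 went from 2.52, 2.46, 3.68 and 1.28 CPM to 3.32, 5.68, 7.72 and 4.84 CPM. The groups overlapped at untreated replicate 3 and treated replicate 1, and the 2.16-fold rise was called (edgeR adjusted p = 0.0180). The species difference of 2.10 (SE 0.719) passed with an edgeR adjusted p of 0.0261. That call was lost when any 1 of 5 libraries was left out (mouse treated 1 or 2, mouse untreated 1, spiny mouse treated 3 or untreated 4), and the adjusted p ran up to 0.0586.

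Usp18, the protease that removes ISG15 and also dampens the receptor, fell steeply in mouse and was not called in spiny mouse. Mouse values were 13.4, 9.17, 15.3 and 12.8 CPM untreated and 1.99, 2.59, 2.47 and 5.05 CPM treated. No sample overlapped, and the fall was 4.16-fold (log2 -2.05, SE 0.297, edgeR adjusted p = 0.000399). In spiny mouse the untreated samples had 7.28, 9.16, 7.93 and 7.54 CPM and the treated samples 6.69, 12.5, 14.4 and 7.40 CPM. Treated replicates 2 and 3 lay above all others while 1 and 4 did not, and the log2 fold change was 0.36 (95% interval -0.22 to 0.95, edgeR adjusted p = 0.221).

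Herc6, the mouse ligase that attaches ISG15, had the smallest adjusted p of the species difference among the members. It stood at 9.73, 7.32, 10.4 and 8.47 CPM in untreated mouse and at 1.47, 1.98, 2.25 and 2.04 CPM in treated mouse, 4.61-fold lower (log2 -2.20, SE 0.192, edgeR adjusted p = 2.71e-05). Spiny mouse values were 4.42, 6.11, 6.57 and 7.27 CPM untreated and 9.69, 12.0, 17.2 and 9.64 CPM treated. They did not overlap either, and the rise was 1.996-fold (edgeR adjusted p = 0.00405). The species difference was 3.20 (SE 0.298, edgeR adjusted p = 1.28e-06). Of the other ligases, Trim21 fell in mouse (log2 -0.91) and rose in spiny mouse (0.76), while Trim25 was at 0.15 in mouse, not called, and rose by 0.27 in spiny mouse (edgeR adjusted p = 0.0177). Trim25 was also the member whose mouse sign depended on the scaling, at -0.08 with library size alone and -0.05 with upper-quartile factors.

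The IFIT proteins bind viral RNA. Their 4 genes fell in mouse by nearly the same amount, with log2 fold changes from -1.49 for Ifit1 to -1.42 for Ifit3b, and they lie together on mouse chromosome 19 between Ifit2 (chr19:34528094-34553819) and Ifit1 (chr19:34618271-34627409). With 1 library left out, the mouse call of Ifit1 was lost in 5 of 8 fits, that of Ifit3b in 4 and that of Ifit3 in 3 (edgeR adjusted p up to 0.0966), while Ifit2 lost none. In spiny mouse Ifit1 rose (log2 1.01, edgeR adjusted p = 0.0258), a call lost in 5 of 8 such fits, with the value down to 0.64 without treated replicate 3. Ifit2 was not called there (0.91, edgeR adjusted p = 0.0721). Spiny mouse Ifit3 and Ifit3b did not pass the filter: each library had at most 0.0793 CPM of either, below the level of 3 counts. Their gene models share nearly all of their span on the same strand of 1 scaffold, and reads that fall on both were not counted, so these low values give no level of either gene. Ifit copies are similar to each other, so their separate counts are uncertain.

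The OAS enzymes make the second messenger that activates RNase L. Oas3 (chr5:120891163-120915726 in mouse) had the largest species difference of the list, 4.46 (SE 0.723, edgeR adjusted p = 0.000161). Mouse values were 13.4, 3.38, 11.2 and 9.38 CPM untreated and 2.36, 1.93, 2.91 and 4.94 CPM treated, where only untreated replicate 2 reached the treated range. The fall was 3.06-fold (log2 -1.61, edgeR adjusted p = 0.00941). Spiny mouse Oas3 was low before treatment, at 0.612, 0.635, 0.851 and 0.183 CPM, and reached 1.59, 5.002, 7.36 and 2.92 CPM after it. In untreated replicate 4 it was close to the 0.137 CPM of 3 counts, so the size of the rise and of the species difference rests on few counts. Those groups did not overlap, and the rise of 7.23-fold (log2 2.85, SE 0.526, edgeR adjusted p = 0.00161) was the largest of the members tested in that species.

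Oasl1, which lacks the synthetase activity, stood at 6.72, 2.02, 5.68 and 4.87 CPM in untreated mouse and at 1.42, 1.01, 1.60 and 3.12 CPM in treated mouse (log2 -1.42, edgeR adjusted p = 0.0175). Untreated replicate 2 was below treated replicate 4, and the call was lost without treated replicate 1 or 2 (edgeR adjusted p up to 0.0587). In spiny mouse it rose from 6.19, 5.83, 4.87 and 3.52 CPM to 10.01, 13.1, 12.6 and 14.03 CPM without overlap (log2 1.28, edgeR adjusted p = 0.000393). Oasl2 was at -0.94 in mouse (not called, edgeR adjusted p = 0.0642) and rose by 1.17 in spiny mouse. Oas2 fell in mouse (-1.51) and was at 0.49 in spiny mouse, not called. Oas1a was at -0.85 in mouse, not called. The Oas genes are similar copies, and counts may be split between them.

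Among the antiviral GTPases, Mx1 showed the largest fall of the list in mouse. Its untreated values of 10.02, 3.77, 7.84 and 7.97 CPM went to 1.42, 1.10, 1.49 and 2.19 CPM, all below the untreated samples, a 4.74-fold fall (log2 -2.25, SE 0.329, edgeR adjusted p = 0.000437). Mx2 went from 2.69, 2.24, 3.26 and 2.64 CPM to 0.420, 0.835, 0.837 and 0.780 CPM (log2 -1.89, edgeR adjusted p = 0.000395). The Mx genes are copies that lie near each other on mouse chromosome 16.

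Rsad2 (viperin, an enzyme that makes a chain-terminating nucleotide) and its neighbour Cmpk2, which supplies the substrate, start close to each other on opposite strands of mouse chromosome 12. Rsad2 had 11.6, 4.25, 10.7 and 15.4 CPM in untreated mouse and 2.31, 2.33, 3.93 and 4.64 CPM in treated mouse. Cmpk2 had 13.3, 4.47, 13.7 and 11.6 CPM and then 2.42, 3.03, 3.38 and 4.71 CPM. For both genes untreated replicate 2 lay just below treated replicate 4 and the other untreated values lay far above, and both fell by a log2 of 1.66 (edgeR adjusted p = 0.00514 and 0.00312).

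In spiny mouse 1 of the pair was called. Rsad2 rose from 3.47, 3.65, 4.36 and 4.25 CPM to 4.46, 7.43, 14.3 and 5.67 CPM, without overlap but with treated replicate 3 far above the rest (log2 1.02, edgeR adjusted p = 0.0251). Without that library the value was 0.58 (edgeR adjusted p = 0.0336), and the call was lost without untreated replicate 1 or 2 (edgeR adjusted p up to 0.0621). Cmpk2 was at 5.31, 5.91, 7.18 and 4.16 CPM and then at 4.96, 7.18, 9.81 and 6.21 CPM, with overlapping groups (log2 0.32, 95% interval -0.24 to 0.88, edgeR adjusted p = 0.260). A test of the difference between the genes was not made.

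Bst2 (tetherin, which holds virions on the cell), Samd9l (a translation repressor) and Eif2ak2 (the RNA-activated kinase PKR) completed this group. Bst2 was at -0.80 in mouse, not called, and rose by 1.05 in spiny mouse. Samd9l fell by 1.42 on the log2 scale in mouse and rose by 0.86 in spiny mouse. Eif2ak2 had one of the smallest called falls in mouse (-0.36, edgeR adjusted p = 0.0311), which was not called with DESeq2 size factors (-0.26, edgeR adjusted p = 0.0821) or in 7 of 8 fits with 1 library left out. In spiny mouse Eif2ak2 rose 2.09-fold, from a mean of 11.7 ± 1.65 to 24.5 ± 2.31 CPM (SD, n = 4 each; log2 1.06, edgeR adjusted p = 9.24e-05).

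The PARP9-DTX3L group acts in DNA damage signalling and in the interferon response. Dtx3l, the ubiquitin ligase of the complex, had 52.7, 30.3, 54.4 and 49.6 CPM in untreated mouse and 28.7, 26.9, 26.3 and 29.6 CPM in treated mouse, with every treated value below the untreated ones (log2 -0.75, edgeR adjusted p = 0.00480). In spiny mouse it rose from 36.7, 40.6, 51.2 and 37.8 CPM to 80.4, 126, 142 and 103 CPM. That 2.71-fold rise had no overlap (log2 1.44, SE 0.178, edgeR adjusted p = 0.000188). Parp9, its partner, starts beside it on the other strand in both species with overlapping exons, and read pairs on the shared stretch were not counted. Parp9 fell by 0.80 in mouse and rose by 1.10 in spiny mouse on the log2 scale.

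Parp14, an ADP-ribosyltransferase of the same locus, was among the steadiest members in untreated mouse, at 53.9, 53.2, 62.2 and 54.8 CPM, and treated samples had 23.6, 24.0, 28.0 and 33.5 CPM. Here untreated replicate 2 did not stand apart, and the fall was 2.05-fold (log2 -1.04, SE 0.128, edgeR adjusted p = 0.000168). Spiny mouse Parp14 went from 42.9, 43.8, 51.1 and 49.4 CPM to 59.4, 106, 153 and 114 CPM without overlap (log2 1.21, edgeR adjusted p = 0.00215). The species difference was 2.25 (SE 0.286, edgeR adjusted p = 2.01e-05).

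The sensors and the remaining members went the same ways with fewer calls in spiny mouse. Ifih1 (MDA5, a sensor of long double-stranded RNA) fell 2.004-fold in mouse and rose 1.64-fold in spiny mouse. Dhx58 (LGP2, its regulator) fell by 1.31 on the log2 scale in mouse, a call lost in 6 of 8 fits with 1 library left out, and was at 0.25 in spiny mouse, not called. Ifi44 had 4.40, 0.789, 3.92 and 2.19 CPM in untreated mouse and 0.683, 0.967, 1.35 and 1.41 CPM in treated mouse, where untreated replicate 2 lay within the treated range (log2 -1.34, edgeR adjusted p = 0.0377, lost in 6 of 8 fits with 1 library left out). In spiny mouse Ifi44 rose from 6.84, 8.21, 11.4 and 7.09 CPM to 15.7, 29.7, 31.4 and 13.6 CPM, with no overlap (log2 1.43, edgeR adjusted p = 0.00310). Ifi35 and Xaf1 were called lower in mouse (-0.48 and -1.47) and higher in spiny mouse (0.47 and 0.62). The mouse call of Ifi35 was lost in 6 of 8 fits with 1 library left out, and the value was -0.31 without untreated replicate 3.

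Levels of different genes can be compared only per length, as CPM per kilobase of counted exon. On that scale Bst2 had the highest mean in untreated mouse (18.4), ahead of Isg15 (15.4), Irf7 (11.04) and Trim25 (10.4). The SDs of 9.65 for Bst2 and 8.53 for Isg15 mean that this order does not exceed the spread between samples. Ifi44 was the lowest in untreated mouse at 0.461. In untreated spiny mouse Bst2 was again highest (25.2 ± 3.02), followed by Ifi35 (18.9 ± 1.22) and Irf7 (17.9 ± 1.09), which do not differ beyond their spread. Oas3 was lowest among the tested members at 0.134. Across the 28 members tested in both species the log2 fold changes had a Pearson r of -0.14 and a Spearman rho of 0.014, a description over genes that share libraries.

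The other genes of the pathway were then read from a list of 72. Their counts stand against 35.3% of all genes called lower and 25.9% called higher in mouse, and 26.9% and 28.2% in spiny mouse. The ligands came first. Ifnb1 in both species and Ifna1 in mouse were at 0 in every library, which at 3 counts allows up to between 0.102 and 0.158 CPM in a library. Spiny mouse Ifna1 was also listed at 0, but it overlaps Ifna12 on the same strand and shared reads were not counted, so no limit is given. Ifnk, the interferon of keratinocytes, had 1.63, 1.80, 2.09 and 2.87 CPM in untreated mouse and 0.210, 0.0879, 0.145 and 0.0743 CPM in treated mouse. All treated values were lower, from 201 counts in 4 libraries to 12 (log2 -4.0004, edgeR adjusted p = 4.43e-05). Spiny mouse Ifnk was too low to test, with 34 counts over untreated and 11 over treated libraries. Ifng, made by T and NK cells, had 5 counts over the untreated and 38 over the treated spiny mouse libraries, at 0.091, 0.465, 0.695 and 0.183 CPM in treated replicates 1 to 4. Mouse Ifng had 12 and 3 counts. Neither table's Ifng passed the filter.

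Of 6 receptor genes, 5 rose in spiny mouse, and in mouse 2 fell and none rose. The mouse share called lower, 33.3%, is near that of all genes. Ifnar1 was at 33.2, 35.9, 35.4 and 38.1 CPM in untreated spiny mouse and at 61.0, 62.1, 62.1 and 70.9 CPM in treated spiny mouse (log2 0.85, edgeR adjusted p = 3.72e-05). In mouse it was not called (0.16, edgeR adjusted p = 0.146), and the species difference of 0.69 was (edgeR adjusted p = 0.000136). Ifnar2 rose by 0.63 in spiny mouse and was at 0.10 in mouse. Ifngr1, the ligand-binding chain for interferon gamma, fell by 0.91 in mouse and rose by 0.99 in spiny mouse. Its partner Ifngr2 rose by 0.76 in spiny mouse and was not called in mouse (0.37). Ifnlr1, the interferon lambda chain, fell by 0.56 in mouse and was at -0.16 in spiny mouse, not called, and the shared chain Il10rb rose by 0.33 in spiny mouse and was at 0.24 in mouse, not called.

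Of 7 kinases and transcription factors, 5 rose and none fell in spiny mouse, and in mouse 2 fell and 1 rose, shares (28.6% and 14.3%) below those of all genes. Irf8, a transcription factor of myeloid and B cells, was the gene among them that was called in opposite directions. It had 20.9, 14.6, 22.7 and 18.2 CPM in untreated mouse and 10.3, 11.8, 13.3 and 14.9 CPM in treated mouse (log2 -0.60, edgeR adjusted p = 0.0123). Untreated replicate 2 lay just below the highest treated value, and the groups otherwise did not overlap. In spiny mouse it rose from 15.8, 17.7, 19.7 and 17.9 CPM to 20.1, 29.7, 39.2 and 39.3 CPM, without overlap and with treated replicate 1 lowest (log2 0.85, edgeR adjusted p = 0.00510). The species difference was 1.45 (SE 0.271, edgeR adjusted p = 0.000487). Jak2, a kinase of the interferon gamma receptor, rose by 1.36 in spiny mouse and was at -0.08 in mouse, not called.

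Sensors and adaptors numbered 13, of which 9 rose and none fell in spiny mouse, and 7 fell and 2 rose in mouse. Rigi, the sensor RIG-I, fell by 0.73 in mouse and rose by 1.12 in spiny mouse. Zbp1, a sensor of Z-form nucleic acid, fell by 1.07 and rose by 1.35, and Aim2, a DNA sensor of the inflammasome, fell by 0.63 and rose by 3.27. Tlr7 and Tlr9, endosomal receptors for nucleic acid, fell by 0.95 and 0.94 in mouse and rose by 0.28 and 1.03 in spiny mouse. Of 6 negative regulators all rose in spiny mouse, and in mouse 3 of 5 tested rose and none fell. Socs1, Socs3 and Ptpn2, which restrain JAK-STAT signalling, rose in both species, by 0.59, 0.66 and 0.45 in mouse and by 1.69, 2.73 and 0.51 in spiny mouse on the log2 scale.

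**Figure D4:**
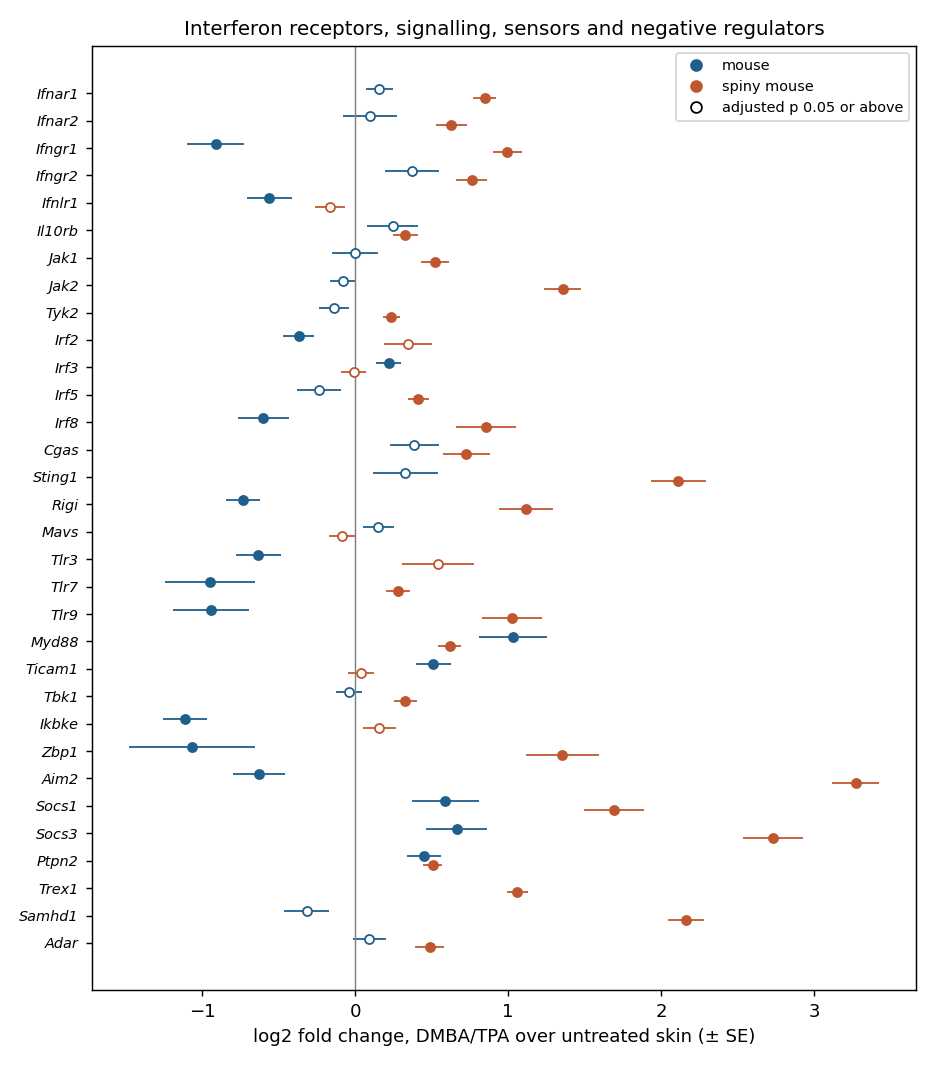
Log2 fold change with its standard error for interferon receptors, signalling genes, sensors and negative regulators, mouse in blue and spiny mouse in orange, filled where the edgeR adjusted p is under 0.05. Irf8 and Ifngr1 lie on opposite sides of 0 in the species, while Socs1, Socs3, Ptpn2 and Myd88 lie to the right of 0 in both.

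In a list of 30 further interferon-stimulated genes, 23 of 27 tested rose and 1 fell in spiny mouse. In mouse 14 fell, 1 rose and 15 were not called. The mouse share called lower was 46.7%, against 79.4% of the members and 35.3% of all genes. Over the whole pathway list, 26 of 62 tested genes fell and 7 rose in mouse, and 48 of 59 rose and 1 fell in spiny mouse. In mouse the share called lower, 41.9%, was near that of all genes, and in spiny mouse the share called higher was 81.4% against 28.2%. Those called lower in mouse and higher in spiny mouse numbered 17 of 58 tested in both, where 3.53% of all shared symbols were. Besides Ifngr1, Irf8, Rigi, Zbp1, Aim2, Tlr7 and Tlr9 they were Ddx60, Rnf213, Parp10, Parp12, Helz2, Slfn5, Mov10, Nmi, Trim34a and Apobec3. Ddx60, a helicase that assists RIG-I, had the largest fall of these in mouse (log2 -1.95) and rose by 1.25 in spiny mouse. Ifitm1, a membrane protein that blocks viral entry, rose in both species (0.93 and 1.22). Lgals9 was the gene that fell in spiny mouse (-1.80) and was at 0.03 in mouse, not called. The reverse pair of calls, a rise in mouse with a fall in spiny mouse, was found for none of the 58.

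Skin is a mixture, and fewer cells of a type cannot be told apart from less RNA per cell in these bulk samples. The marker counts stand against 35.3% of all genes called lower and 25.9% higher in mouse, and 26.9% and 28.2% in spiny mouse. All 4 leukocyte markers (Ptprc, Coro1a, Laptm5 and Cd53) rose in treated spiny mouse, where their summed level went from a range of 169 to 217 CPM to 449 to 666 CPM. In mouse 1 of 4 fell (Ptprc) and none rose, with sums of 152 to 348 CPM untreated and 142 to 193 CPM treated. Untreated mouse replicate 2, low for the members, was also lowest of the untreated mouse libraries for the leukocyte sum (152 CPM) and the macrophage sum (399 CPM against 619 to 1165). Its sums of T cell, NK cell, B cell, monocyte and neutrophil, dendritic and Langerhans cell and keratinocyte markers were lowest too. It was highest of them for markers of the growing hair follicle (1588 CPM), plasmacytoid dendritic cells (209), endothelium (191) and skeletal muscle (9175). Which of these goes with its low member levels was not tested. T cell markers rose in spiny mouse for 5 of 7 genes, with sums of 36.2 to 57.6 and then 69.0 to 137 CPM, and fell in mouse for 4 of 7, with sums of 20.5 to 29.3 and then 11.4 to 15.8 CPM. In treated spiny mouse replicates 1 to 4 the T cell sum was 69.0, 94.4, 137 and 101 CPM, highest in replicate 3, the library with the highest member levels. The leukocyte, NK cell, monocyte and neutrophil, and dendritic and Langerhans cell sums were also highest there. Those of macrophages (1238 CPM against 970 in replicate 3), B cells and plasmacytoid dendritic cells were highest in replicate 4.

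NK cell markers fell for 4 of 4 genes in mouse, with sums of 7.24 to 13.9 and then 2.69 to 4.01 CPM. In spiny mouse 1 of 3 tested rose, and that share of 33.3% is near the 28.2% of all genes. Sums there were 6.94 to 9.87 and then 6.41 to 23.1 CPM. Spiny mouse Klrb1c, which overlaps Klrb1a on the same strand so that shared reads were not counted, was listed at 0. Macrophage markers rose for 4 of 7 genes in spiny mouse (sums of 495 to 596 and then 805 to 1238 CPM) and fell for 2 of 7 in mouse (399 to 1165 and then 479 to 708 CPM). In mouse the shares of leukocyte (25%) and macrophage (28.6%) markers called lower were below the 35.3% of all genes. Monocyte and neutrophil markers rose for 3 of 5 tested in spiny mouse, where the sum went from between 48.0 and 61.8 to between 142 and 179 CPM. In mouse 2 of 5 rose and 1 fell. Plasmacytoid dendritic cells, the main producers of interferon alpha, had 4 genes listed (Siglech, Ccr9, Spib and Tcf4), of which 3 were tested in each species. All 3 fell in mouse, with log2 values of -1.88 to -0.43 and a median of -0.56, and none was called in spiny mouse. Whether these genes mark those cells alone in this skin was not tested. Dendritic and Langerhans cell markers fell for 5 of 6 in mouse and for 2 of 5 tested in spiny mouse.

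Tissue markers are set against the same shares of all genes, 35.3% called lower and 25.9% higher in mouse, and 26.9% and 28.2% in spiny mouse. Keratinocyte markers rose for 3 of 4 genes in each species, and skeletal muscle markers fell for 6 of 6 in each. Fibroblast markers fell for 2 of 5 in mouse, a share (40%) near that of all genes, and for 3 of 5 in spiny mouse, where 1 rose. Genes of the growing hair follicle rose for 4 of 5 in mouse. Their mouse sum went from between 1.37 and 1588 to between 16767 and 17863 CPM. All treated mouse libraries were thus above all untreated ones, so the effects of hair growth and of treatment cannot be told apart in mouse. In spiny mouse 1 of 4 tested was called lower, a share (25%) near that of all genes, and all 4 had negative values (log2 -2.56 to -2.38). The spiny mouse sum went from between 766 and 7930 to between 141 and 2242 CPM, with overlapping ranges. The species difference was called smaller in spiny mouse for 4 of 4. The part of these cell and tissue changes in the levels of the interferon-stimulated genes was not tested.

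Scaling bears on the mouse directions more than on those of spiny mouse. Library size alone moved the mouse median of all genes by -0.24 and upper-quartile factors by -0.20 relative to TMM. DESeq2 size factors moved it the other way, by 0.096. Among all called mouse genes 57.6% were lower with TMM, 71.4% with library size alone, 69.5% with upper-quartile factors and 51.6% with DESeq2 size factors. In the species difference 53.6% of the calls were smaller in spiny mouse with TMM, 33.8% with library size alone and 38.8% with upper-quartile factors. With DESeq2 size factors 63.1% of them were smaller. The members' median in mouse was -1.49, -1.46 and -1.17 with library size alone, upper-quartile factors and DESeq2 size factors. Relative to the shifted median of all genes it stayed near its TMM value. No member was called higher in mouse or lower in spiny mouse under any of the scalings tried.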

How the data were processed

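Polyadenylated RNA of 16 skin samples was measured. The values are raw counts per gene, deposited by the authors as 1 table for each species. Per the file headers, read pairs were counted with featureCounts 2.0.3, on the GRCm39 genome with Ensembl 108 annotation in mouse and on AcoCah2 in spiny mouse. Per the file headers the counting was not set to use strand, and read pairs shared by several genes, also genes on opposite strands, or by several places were not counted. Trim Galore and HISAT2 are named in the submitters' processing notes, with no version. Mouse identifiers were paired with symbols from GENCODE M39, which named 56236 of 56980. Treated columns carry the labels' library names. Untreated columns carry a code absent from the labels. Their species letter and replicate number together match a single untreated label each. Total counts ran from 19608787 to 30561256, and precision limits given as 3 counts cover counting error only.

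For each species alone, edgeR 4.0.16 (R 4.3.3) was used with its filterByExpr rule for low counts, TMM scaling and the quasi-likelihood test, with Benjamini-Hochberg adjustment over all genes tested. The standard error is the log2 fold change divided by the square root of F, and 95% intervals use 6 residual degrees of freedom. The species difference is the interaction term over shared symbols. The procedure was also run on simulated counts in which few genes changed and no library stood apart. That run does not cover data in which most genes were called. To look for duplicated libraries, pairs of replicates within a group were compared by a chi-square statistic. Per degree of freedom it was 11.4 to 166 in 24 pairs, so no pair looked like a copy and all samples were kept. The statistic is no measure of sample quality.

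The members and gene lists were chosen with earlier results of these data known. Values in every sample are given for the 6 members with the largest called change in each species at an average log2 CPM of at least 0, the 4 with the largest species difference, and the regulators Isg15, Irf7, Stat2, Irf9, Usp18 and Irf1. Pathway genes are named where they are ligands, receptors or called in opposite directions, and a few others named were chosen after their values were seen. A gene of that list is not reported here and is in none of its counts. Other settings tried were the test and, separately, the size factors of DESeq2 1.42.0, upper-quartile factors, library size alone, no filter, a replicate block and leaving out each library.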

Additional observations from a re-analysis of the deposited data

Results flagged for a closer look

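In 4 of 124 groups of 4 samples, 1 value lay far outside the other 3, where chance flags about 1 group in 20. Mx2 was low in treated mouse replicate 1, at 0.420 CPM. In untreated spiny mouse replicate 3 was high for Eif2ak2 (14.2 CPM), Ifih1 (43.7 CPM) and Xaf1 (12.8 CPM), and that library was the highest untreated one for 21 of 28 members.

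The response to treatment differed between the species for 27 members, by the interaction test of edgeR, each with the larger value in spiny mouse. Differences above 2.5 on the log2 scale were those of Oas3 (4.46), Herc6 (3.20), Ifi44 (2.77), Oasl1 (2.70) and Rsad2 (2.68). Between 2 and 2.5 were Ifit1 (2.49), Usp18 (2.42), Ifit2 (2.39), Irf7 (2.34), Samd9l (2.28), Parp14 (2.25), Dtx3l (2.19), Oasl2 (2.11), Isg15 (2.10) and Xaf1 (2.09). Lower values were those of Oas2 (1.999), Cmpk2 (1.98), Parp9 (1.91), Bst2 (1.84), Ifih1 (1.71), Irf1 (1.69), Trim21 (1.67), Dhx58 (1.55), Eif2ak2 (1.42), Stat2 (1.29), Irf9 (1.03) and Ifi35 (0.95). The transcription factors Stat2 and Irf9 thus stood near the lower end. Oas3, whose level in untreated spiny mouse was low, stood apart at the upper end.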

How the results depend on the processing

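Members called numbered 27 in mouse, 23 in spiny mouse and 27 for the species difference. In mouse the count was 25 with DESeq2 size factors, 27 with the DESeq2 test, 30 with library size alone or upper-quartile factors and 24 with no filter, all lower. In spiny mouse it was 24 with the DESeq2 test and 23 in the others, all higher, and the species difference gave 27 in each. Leaving out 1 library gave 19 to 33 in mouse, 21 to 24 in spiny mouse and 25 to 27 for the difference. The medians then ran from -1.44 to -1.05, from 0.66 to 1.14 and from 1.83 to 2.30.

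Some single values changed sign. Trim25 in mouse was -0.0819 with library size alone and -0.0465 with upper-quartile factors. Its species difference was -0.0147 with no filter, and from -0.0272 (without treated mouse replicate 2) to 0.163 with 1 library left out. Oas2 in spiny mouse ran from -0.0236 (without treated replicate 3) to 0.679 with 1 library left out. None of the 5 negative values was called, and the cause was not tested. Eif2ak2 and Ifi35 in mouse were not called with DESeq2 size factors, the DESeq2 test or no filter, and Ifi44 was not called with no filter. With 1 library left out, mouse calls were lost in 7 of 8 fits for Eif2ak2, 6 for Dhx58, Ifi35 and Ifi44, 5 for Ifit1, 4 for Ifit3b, 3 for Ifit3 and 2 for Oasl1. In spiny mouse this held for Ifit1 (5) and Rsad2 (2), and in the species difference for Isg15 (5 of 16) and Dhx58 (1 of 16).

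The replicate numbers recur in every group, but the labels do not say that they pair samples, and deviations of same-numbered samples correlated at 0.009 on average in mouse and at -0.39 in spiny mouse. With the replicate block 26, 23 and 27 members were called. In mouse the block ended the calls of Eif2ak2 (edgeR adjusted p = 0.0704) and Ifi44 (0.0771) and added that of Oasl2 (0.0485). A sex term could not be fitted, because all 8 mouse libraries held Y-linked counts and the spiny mouse libraries held at most 2. Of 10 ligands listed, 1 in mouse and none in spiny mouse passed the filter on low counts. For Ifit3 and Ifit3b in spiny mouse, depth cannot be told apart from the loss of reads shared by their overlapping models.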
